A study of Mus musculus with 8 samples.

Results

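Steroidogenesis in the testis runs through a short chain of proteins, and 10 of their genes are described here: Star, Cyp11a1, Hsd3b1, Hsd3b6, Cyp17a1, Hsd17b3, Srd5a1, Fdx1, Fdxr and Por. They were taken from the deposited expression table by gene symbol, 10 of its 57690 entries, and each symbol had a single entry. The tested tissue was testis of 8-week-old C57BL/6 male mice. One group had received anti-PD-L1, an antibody against the immune checkpoint ligand PD-L1, and the other an IgG2b isotype control (IgG). In both groups 200 µg was injected into the peritoneum on 2 occasions, and testes were taken 7 days after treatment. There were 4 libraries per group, numbered as replicates 1 to 4. The labels do not say whether each library came from its own mouse, so p-values measure the spread between these libraries, which may be technical.

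Leydig cells, which lie between the seminiferous tubules, make most of the testosterone of the body. STAR carries cholesterol to the inner mitochondrial membrane, where CYP11A1 cuts its side chain to give pregnenolone. Electrons for that reaction pass from NADPH to ferredoxin reductase (Fdxr) and then to ferredoxin (Fdx1). In the endoplasmic reticulum, HSD3B enzymes turn pregnenolone into progesterone, CYP17A1 turns progesterone into androstenedione with electrons from POR, and HSD17B3 reduces androstenedione to testosterone. SRD5A1 reduces testosterone further to dihydrotestosterone.

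The sequences of the paralogous pair Hsd3b1 and Hsd3b6 are shown because reads from near-identical copies can be split between them. Their coding sequences are both 1119 bases long and differ at 112 positions, so 90.0% of bases are identical, and the longest identical run is 72 bases. The first 120 coding bases from the GENCODE transcripts differ at 20 positions, which are in capitals, with Hsd3b1 at chr3:98857845-98857964 and Hsd3b6 at chr3:98810927-98811046, both on the minus strand of GRCm38.
Hsd3b1: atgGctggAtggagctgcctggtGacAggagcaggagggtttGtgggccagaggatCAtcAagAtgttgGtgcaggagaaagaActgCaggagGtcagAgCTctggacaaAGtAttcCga
Hsd3b6: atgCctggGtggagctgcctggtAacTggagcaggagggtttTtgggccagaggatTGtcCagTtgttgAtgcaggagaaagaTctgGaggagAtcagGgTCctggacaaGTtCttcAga
In the transcripts, 15.7% of the 50-base words of Hsd3b6 also occurred in another gene, most of them in Hsd3b2 (13.2%). For Hsd3b1 the share was 4.86%, led by Gm12431 (2.70%), which was listed at 0 TPM in all libraries. Hsd3b2 averaged 0.795 TPM in anti-PD-L1 libraries and 0.853 TPM in IgG libraries, so a gene that could share reads with Hsd3b6 was listed at a low level. Srd5a1 shared 15.1% of its words with Gm17108, which overlaps it on the same strand and averaged 1.68 TPM in anti-PD-L1 libraries and 1.00 TPM in IgG libraries; for Srd5a1 the values are therefore uncertain. Cyp11a1 shared 2.06%, nearly all with the overlapping Gm17322, and the other 6 genes shared none.

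Upstream sequences are given for Fdx1, which had the largest log2 difference of the 10 between the groups, and for Cyp11a1, whose level moved with those of Star and Cyp17a1 from library to library. Each run is the 250 bases before a RefSeq transcript start in GRCm38.p6, at chr9:51963603-51963852 on the minus strand for Fdx1 and chr9:58014702-58014951 on the plus strand for the second of the 2 annotated starts of Cyp11a1. Capitals mark CAAGGT in the first run and AGGTCA in the second, hexamers that nuclear receptors such as NR5A1 are known to bind.
Fdx1: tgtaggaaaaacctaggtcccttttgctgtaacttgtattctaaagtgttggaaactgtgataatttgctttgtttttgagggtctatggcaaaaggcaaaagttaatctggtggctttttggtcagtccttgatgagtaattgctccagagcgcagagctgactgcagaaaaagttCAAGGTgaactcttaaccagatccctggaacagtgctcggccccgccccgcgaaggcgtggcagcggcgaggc
Cyp11a1: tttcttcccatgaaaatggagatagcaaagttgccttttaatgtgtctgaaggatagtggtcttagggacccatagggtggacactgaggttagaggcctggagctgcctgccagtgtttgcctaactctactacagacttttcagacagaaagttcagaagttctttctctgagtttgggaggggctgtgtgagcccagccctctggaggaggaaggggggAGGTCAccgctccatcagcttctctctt
The Fdx1 run holds CAAGGT at position -73 from the start, and the Cyp11a1 run holds AGGTCA at position -28. Both strands of the 8 genes with an entry were searched for AGGTCA, for the related CAAGGT and for the TATA box letters TATAAA; these motifs were chosen after the sequences were seen. Hsd17b3 also holds CAAGGT, at position -99, while Hsd3b1, Hsd3b6, Fdxr, Por and Srd5a1 hold none of these letters in the same window, and neither does the first start of Cyp11a1. Among 32851 RefSeq promoters of this length, 14.0% held AGGTCA, 10.9% held CAAGGT and 12.4% held TATAAA. A match is a description of letters and not of a bound site.

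Expression was deposited as TPM, a length-scaled share of each library that keeps no depth, so the depth behind each value is unknown. Anti-PD-L1 replicate 1 and IgG replicate 4 stood apart from the others, with 31322 and 31572 table entries above 0 TPM, against 29064 to 29904 in the other 6 libraries. Their median log2(TPM + 1) over tested genes was 3.45 and 3.47, against 3.21 to 3.31. Insl3, Lhcgr and Nr5a1, which are on a list of Leydig cell markers, were above 0 TPM in all libraries. The list was not checked for expression in other testis cells. Of the 15 genes on this list, none was at 0 throughout, and 13 averaged at least 1 TPM. The list includes Star, Cyp11a1, Cyp17a1, Hsd3b1 and Hsd3b6, so these counts are not independent of the genes described here. An adrenal cortex list of 6 genes, which would mark steroid-making cells of another kind, summed to 5.32 to 6.26 TPM in anti-PD-L1 libraries and 5.12 to 8.90 TPM in IgG libraries. Of the 6, only Mc2r was at 0 in every library, and 1 averaged at least 1 TPM.

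The 10 genes together made up a small share of each library. Their summed TPM was 620.2, 759, 516 and 657 in anti-PD-L1 replicates 1 to 4, against 666, 536, 582 and 654 in IgG replicates 1 to 4. The highest and the lowest sum were both anti-PD-L1 libraries, and the groups overlapped. In bulk tissue, fewer cells of a type and less RNA per cell cannot be told apart. The sum was 0.0516% to 0.0759% of all TPM, and Cyp17a1 with Cyp11a1 supplied 48.0% to 58.1% of it.

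TPM is scaled by length, so levels can be set beside each other. Over the 8 libraries the mean was highest for Cyp17a1 at 237 TPM, then Cyp11a1 at 95.7 TPM, and both ranges lay clear of the next gene's range. Hsd3b1 (68.5 TPM), Hsd3b6 (56.3 TPM), Fdx1 (44.7 TPM), Star (44.7 TPM) and Hsd17b3 (36.5 TPM) followed, and in this run each gene's range over the libraries overlapped that of its neighbour. Fdxr at 21.1 TPM, Por at 14.8 TPM and Srd5a1 at 4.12 TPM came last, each separated from the gene before it. The carriers of electrons were thus listed below these enzymes: Fdx1 and Fdxr below Cyp11a1, and Por below Cyp17a1. These are levels of whole testis, and levels within the cells that hold the enzymes were not measured.

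**Figure D1:**
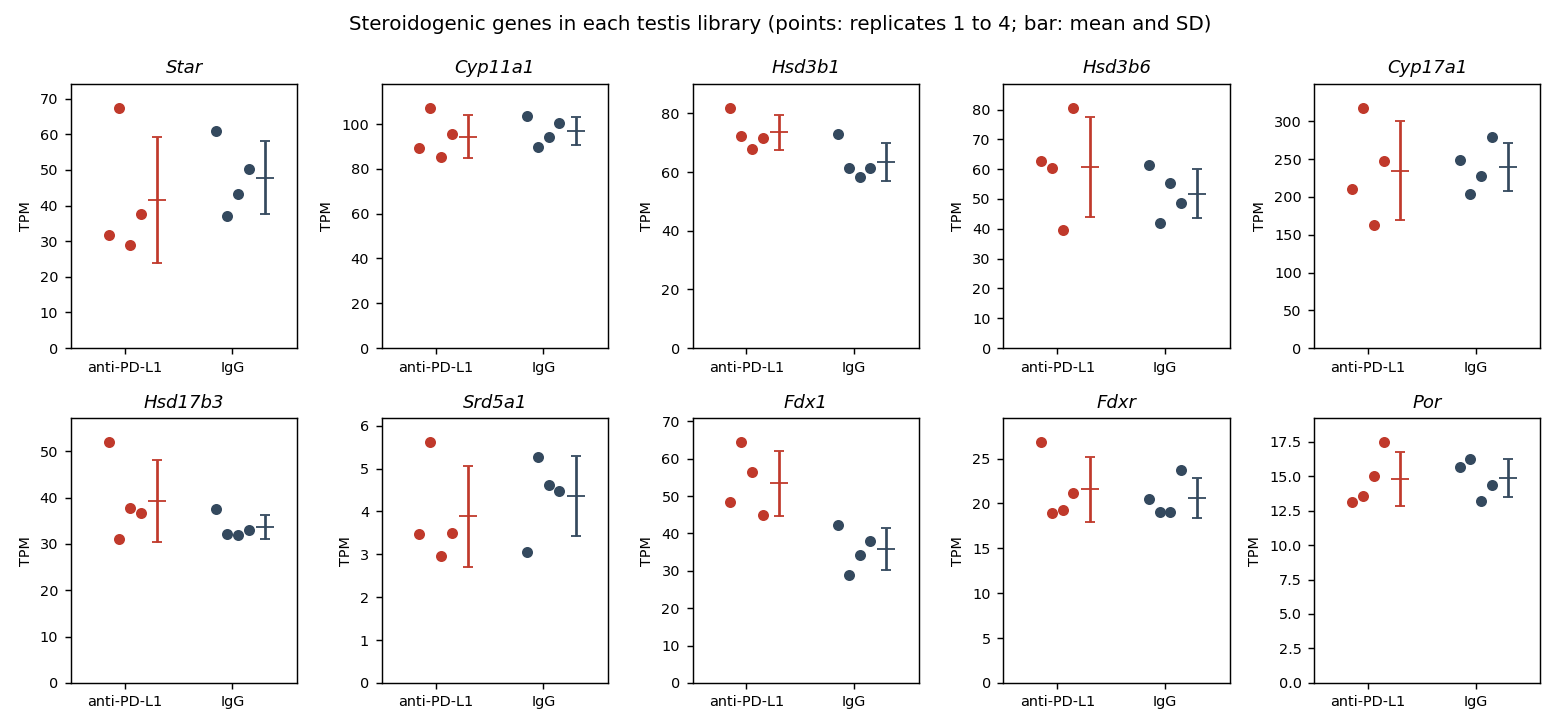
Level in TPM (linear axis from 0) of the 10 genes in each library, with anti-PD-L1 points left of IgG points and a bar for the mean and SD of each group (n = 4). The groups overlap for 9 of the genes, and the 4 anti-PD-L1 points of Fdx1, from 44.9 to 64.4 TPM, lie above the 4 IgG points, from 28.9 to 42.3 TPM.

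The design sets anti-PD-L1 against IgG, and the comparison asks how the transcripts of the chain differed after treatment. All 10 genes had a mean of at least 1 TPM and were tested with limma on log2(TPM + 1). None passed a Benjamini-Hochberg adjusted p of 0.05 in limma, nor did any of the 20343 genes tested (0% called); at an unadjusted limma p under 0.05 the counts were 2 of the 10 and 1063 of all tested genes (5.23%). The 2 were Fdx1 and Hsd3b1, both higher in anti-PD-L1. Of the 10, 5 had a higher and 5 a lower mean log2 value in anti-PD-L1, with a median log2 difference of 0.02, against 0.03 over all tested genes, of which 58.3% were higher. The groups did not overlap for 1 of the 10, Fdx1, against 2.99% of all tested genes.

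**Figure D2:**
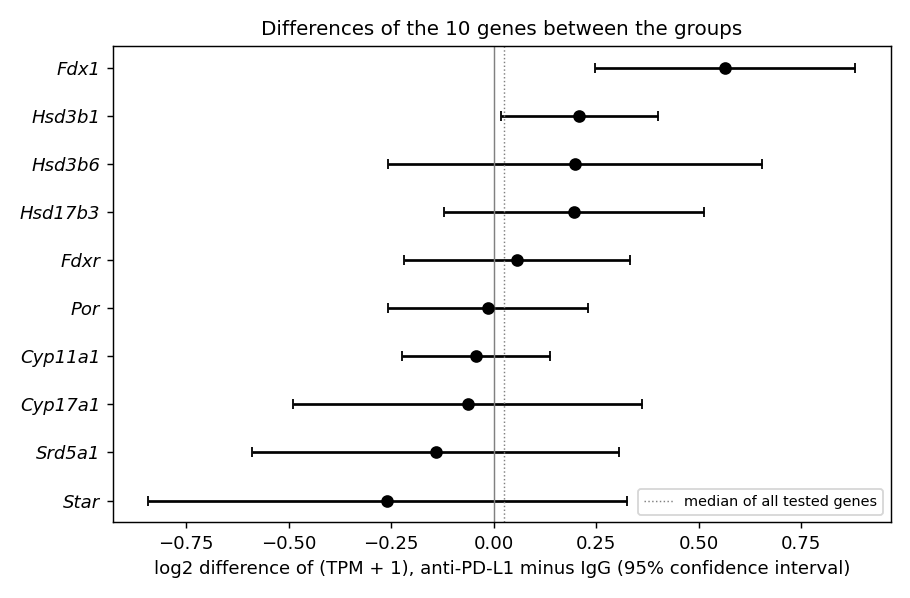
Difference in mean log2(TPM + 1), anti-PD-L1 minus IgG, for each of the 10 genes, with 95% confidence intervals from limma (n = 4 per group); the dotted line is the median of all tested genes at 0.03. The intervals of Fdx1 (0.25 to 0.88) and Hsd3b1 (0.02 to 0.40) lie above 0, and those of the other 8 genes include it.

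Fdx1 encodes ferredoxin, the small iron-sulfur protein that hands electrons to mitochondrial cytochromes P450 such as CYP11A1. It lies on chromosome 9 from 51943306 to 51963556 on the minus strand. It stood at 48.3, 64.4, 56.4 and 44.9 TPM in anti-PD-L1 replicates 1 to 4, against 42.3, 28.9, 34.3 and 37.9 TPM in IgG replicates 1 to 4. Every anti-PD-L1 library was above every IgG library, and the gap between the nearest pair, anti-PD-L1 replicate 4 and IgG replicate 1, was small. The means were 53.5 ± 8.70 TPM in anti-PD-L1 and 35.8 ± 5.65 TPM in IgG (SD, n = 4 each), a ratio of 1.49. The log2 difference was 0.57 with a standard error of 0.14 and an unadjusted limma p of 0.00304. With Benjamini-Hochberg adjustment over all genes the limma p was 0.653, and Fdx1 was 89th of 20343 genes by p, so the difference did not pass the threshold. In the 19 alternative fits the log2 difference ranged from 0.47 to 0.70, the unadjusted limma p from 0.000911 to 0.0180 and the adjusted p from 0.186 to 1.00.

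Marker lists of other cells are set beside Fdx1 here, and of these only the adipocyte sums did not overlap between the groups. A list of 12 adipocyte genes summed to 590.2 to 618 TPM in anti-PD-L1 libraries and 627 to 711 TPM in IgG libraries, most of it from Acsl1 and Pnpla2, and none of the 12 was at 0 throughout. For each of the 9 tested genes of this list, taken alone, the groups overlapped. The adipocyte gene Fabp4 was at 0.51 to 3.13 TPM in anti-PD-L1 libraries, against 33.2 TPM in IgG replicate 1 and 1.24 to 9.26 TPM in the other IgG libraries. Without IgG replicate 1 the log2 difference of Fdx1 was 0.65. Elongating spermatid genes (8 listed) summed to 56654 to 64543 TPM in anti-PD-L1 libraries and 59409 to 74749 TPM in IgG libraries. All 8 had a lower mean log2 value in anti-PD-L1, and 2 passed an unadjusted limma p of 0.05: Prm1, with a log2 difference of -0.21 and a limma p of 0.0241, and Tnp1, with -0.21 and a limma p of 0.0207. The adipocyte gene Adipoq also passed, with a log2 difference of -0.52 and an unadjusted limma p of 0.0179, and 8 of the 9 tested adipocyte genes were lower. Among other lists, 6 of 7 endothelial and 7 of 7 peritubular myoid genes were lower, and 8 of 10 macrophage and 8 of 10 Sertoli cell genes were higher, none past an unadjusted limma p of 0.05. Over all tested genes, 58.3% were higher and 5.23% passed that unadjusted threshold. Endothelial genes (7 listed) summed to 23.4 to 29.2 TPM in anti-PD-L1 libraries and 27.2 to 32.1 TPM in IgG libraries. The sums of 11 macrophage genes, 10 Sertoli cell genes and 7 peritubular myoid genes overlapped as well, at 85 to 108, 397 to 543 and 533 to 612 TPM in anti-PD-L1 libraries, against 77.2 to 95.8, 403 to 519 and 567 to 626 TPM in IgG libraries. Of 7 epididymis genes, 2 were at 0 throughout and the sum stayed at 1.03 to 4.34 TPM in anti-PD-L1 libraries and 0.72 to 2.28 TPM in IgG libraries. The part of these lists in the Fdx1 difference was not tested.

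Fdxr and the second ferredoxin gene, Fdx1l, gave smaller log2 differences. Fdxr, the flavoprotein that reduces ferredoxin (chromosome 11, 115268024 to 115277050, minus strand), was at 26.8, 19.0, 19.3 and 21.2 TPM in anti-PD-L1 libraries and 20.5, 19.0, 19.0 and 23.8 TPM in IgG libraries. The groups overlapped, and the highest value was that of anti-PD-L1 replicate 1, a library that stood apart. The log2 difference was 0.06 with a 95% interval of -0.22 to 0.33, and it turned to -0.047 without that library. Fdx1l, a second mitochondrial ferredoxin that serves iron-sulfur cluster and haem synthesis and that current annotation calls Fdx2, was at 13.3, 14.3, 13.8 and 15.6 TPM in anti-PD-L1 libraries, against 16.3, 15.99, 16.2 and 16.6 TPM in IgG libraries. All 4 anti-PD-L1 values were below all 4 IgG values. The log2 difference of Fdx1l was -0.18 (standard error 0.07), with an unadjusted limma p of 0.0331 and a Benjamini-Hochberg adjusted p of 0.895. Of the 8 fits that left out 1 library, 7 gave an unadjusted limma p above 0.05 for Fdx1l.

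**Figure D3:**
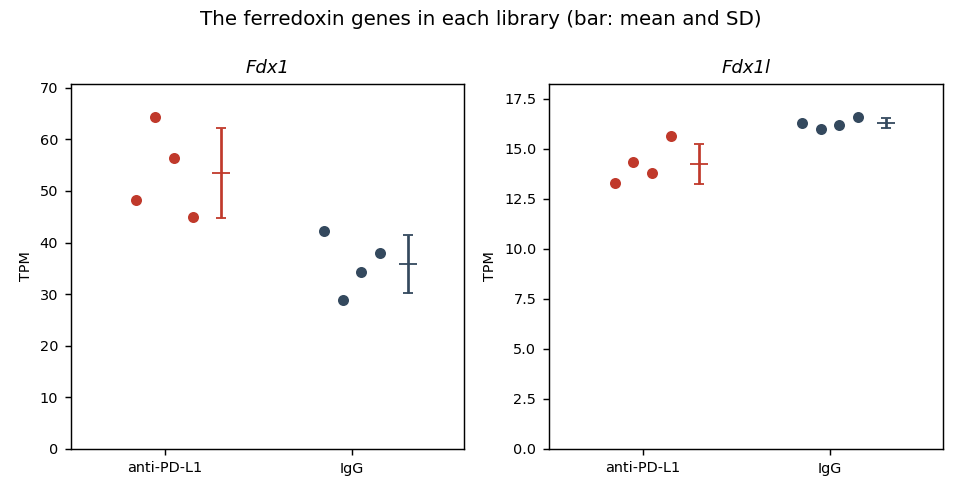
TPM of Fdx1 (left panel) and Fdx1l (right panel) in each library, anti-PD-L1 left of IgG, on linear axes from 0 with a bar for the mean and SD (n = 4). Fdx1 averages 53.5 TPM in anti-PD-L1 and 35.8 TPM in IgG, whereas Fdx1l averages 14.3 TPM in anti-PD-L1 and 16.3 TPM in IgG, and in neither panel do the groups overlap.

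Ratios of TPM within a library do not depend on how that library was scaled, and they are given as descriptions without a test. Fdx1 over Cyp11a1 was 0.541, 0.600, 0.661 and 0.470 in anti-PD-L1 libraries, against 0.408, 0.322, 0.363 and 0.377 in IgG libraries. The means were 0.568 ± 0.0819 in anti-PD-L1 and 0.368 ± 0.0356 in IgG (SD, n = 4 each), and the groups did not overlap. Fdx1 over Fdxr averaged 2.56 ± 0.727 in anti-PD-L1 and 1.74 ± 0.242 in IgG (SD, n = 4 each), and here anti-PD-L1 replicate 1, at 1.80, lay within the IgG range of 1.52 to 2.06. Fdx1 over Fdx1l, a ratio chosen after the values were seen, was 3.63, 4.50, 4.09 and 2.88 in anti-PD-L1 libraries, against 2.59, 1.81, 2.11 and 2.28 in IgG libraries. These 3 ratios share the Fdx1 values and do not support each other.

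**Figure D4:**
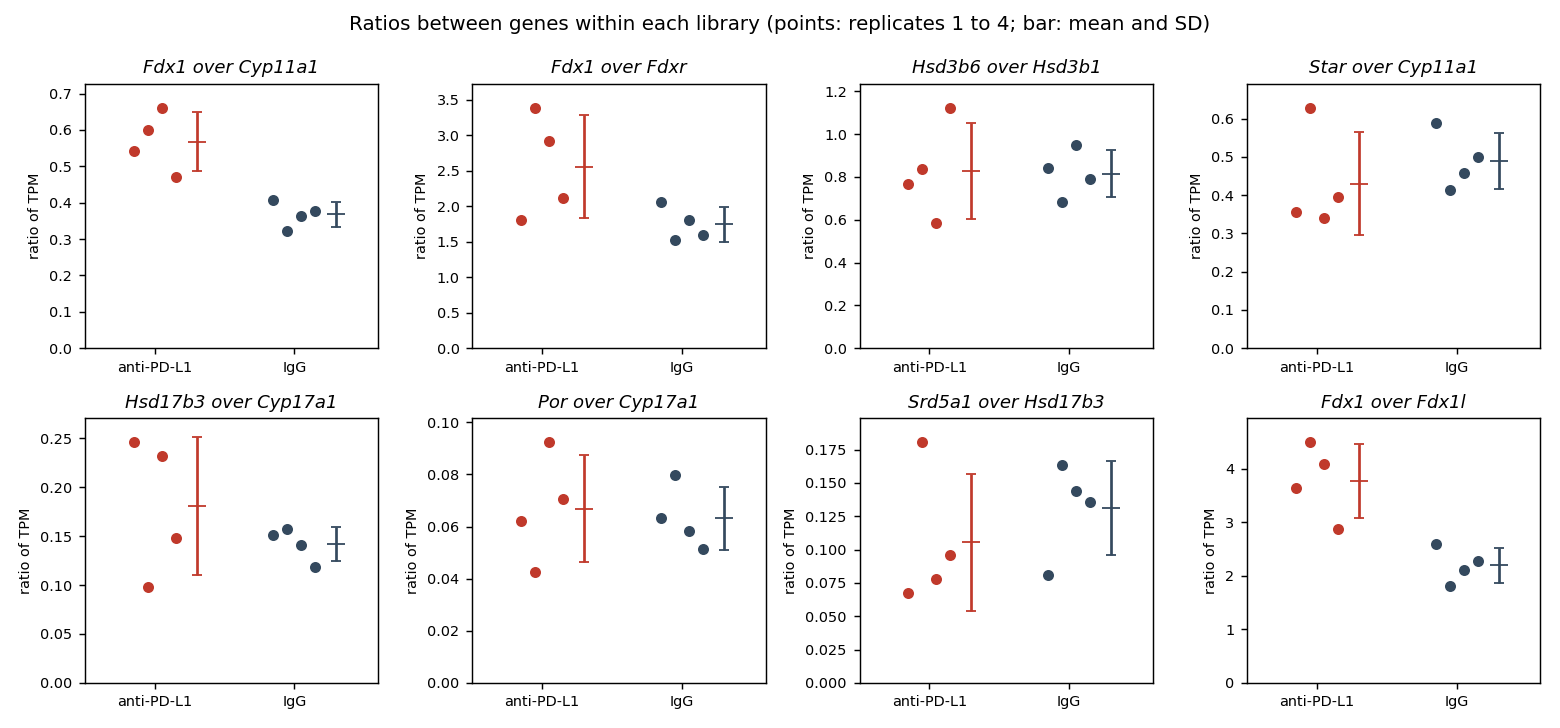
Ratio of TPM between pairs of genes within each library (linear axes from 0), anti-PD-L1 left of IgG, with a bar for the mean and SD (n = 4). The groups lie apart for Fdx1 over Cyp11a1 (0.470 to 0.661 in anti-PD-L1, 0.322 to 0.408 in IgG) and for Fdx1 over Fdx1l, and they overlap in the other 6 panels.

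Star and the P450 enzymes at the start of the chain did not separate the groups. Star (chromosome 8, 25806555 to 25815982, plus strand) was at 31.7, 67.5, 29.0 and 37.7 TPM in anti-PD-L1 libraries and 60.8, 37.0, 43.3 and 50.2 TPM in IgG libraries. Its highest and its lowest value were both in the anti-PD-L1 group, and the mean was 41.5 ± 17.7 TPM there and 47.8 ± 10.2 TPM in IgG (SD, n = 4 each). For Star the log2 difference was -0.26 with a 95% interval of -0.84 to 0.32. Anti-PD-L1 replicate 2 held the highest Star level and reduced this difference: without it the value was -0.52, with an unadjusted limma p of 0.0158. The other fits without 1 library gave values up to -0.12 (without anti-PD-L1 replicate 3), and with array quality weights the direction turned, to 0.031. Of the 10 genes, Star varied most between libraries, with a coefficient of variation of 30.9% and a 2.32-fold span.

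Cyp11a1 (chromosome 9, 58006411 to 58027023, plus strand) was the least variable of the 10. It was at 89.2, 107, 85.3 and 95.7 TPM in anti-PD-L1 libraries and 104, 89.7, 94.5 and 101 TPM in IgG libraries. The values interleaved, the coefficient of variation was 7.98%, and the 95% interval of the log2 difference was -0.22 to 0.14. Cyp17a1 (chromosome 19, 46667165 to 46673172, minus strand) was at 211, 318, 163 and 248 TPM in anti-PD-L1 libraries and 248.5, 204, 228 and 279 TPM in IgG libraries. The anti-PD-L1 values enclosed the IgG values on both sides, with a log2 difference of -0.06 (95% interval -0.49 to 0.36). Por, the flavoprotein that feeds electrons to CYP17A1 (chromosome 5, 135670033 to 135735326, plus strand), was at 13.1, 13.6, 15.01 and 17.45 TPM in anti-PD-L1 libraries and 15.7, 16.3, 13.2 and 14.4 TPM in IgG libraries. The log2 difference of Por was -0.013 (95% interval -0.26 to 0.23), and the ratio of Por to Cyp17a1 was 0.0669 ± 0.0205 in anti-PD-L1 and 0.0631 ± 0.0121 in IgG (SD, n = 4 each).

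Hsd3b1 and Hsd3b6 both lie on chromosome 3, from 98852194 to 98859794 and from 98805504 to 98814443, on the minus strand. Hsd3b1 was at 82.0, 72.4, 68.1 and 71.7 TPM in anti-PD-L1 libraries, against 73.0, 61.3, 58.4 and 61.5 TPM in IgG libraries. The groups overlapped only through IgG replicate 1, which lay above 3 of the 4 anti-PD-L1 libraries. The means were 73.5 ± 5.94 TPM in anti-PD-L1 and 63.6 ± 6.48 TPM in IgG (SD, n = 4 each). The log2 difference was 0.21 (standard error 0.08), with an unadjusted limma p of 0.0352 and a Benjamini-Hochberg adjusted p of 0.912. Of the 8 fits that left out 1 library, 6 gave an unadjusted limma p above 0.05 for Hsd3b1. Without IgG replicate 1 the log2 difference of Hsd3b1 was 0.28, with an unadjusted limma p of 0.00472. Without anti-PD-L1 replicate 1, a library that stood apart and held the highest Hsd3b1, it was 0.16 (unadjusted limma p 0.0943). Without both libraries that stood apart it was 0.14 (unadjusted limma p 0.160).

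Hsd3b6, the isoform known from adult mouse Leydig cells, was at 62.7, 60.5, 39.7 and 80.6 TPM in anti-PD-L1 libraries and 61.4, 42.0, 55.3 and 48.7 TPM in IgG libraries. The highest and the lowest value were both anti-PD-L1 libraries. Hsd3b6 had a log2 difference of 0.20, close to that of Hsd3b1, but its 95% interval ran from -0.26 to 0.65. It depended on single libraries: it was 0.39 without anti-PD-L1 replicate 3 (unadjusted limma p 0.0326), 0.05 without anti-PD-L1 replicate 4 (p 0.790), and for IgG replicate 2 left out it was 0.10 (p 0.639). The ratio of Hsd3b6 to Hsd3b1 averaged 0.827 ± 0.225 in anti-PD-L1 and 0.816 ± 0.109 in IgG (SD, n = 4 each).

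Hsd17b3, which makes testosterone (chromosome 13, 64058266 to 64089230, minus strand), was at 51.9, 31.1, 37.7 and 36.6 TPM in anti-PD-L1 libraries and 37.6, 32.2, 32.0 and 33.0 TPM in IgG libraries. One library, anti-PD-L1 replicate 1, lay far above the rest. The log2 difference was 0.20 (95% interval -0.12 to 0.51), and it was 0.06 without that library. Srd5a1 (chromosome 13, 69573449 to 69611442, minus strand, within the span of the opposite-strand gene Nsun2) was at 3.48, 5.61, 2.95 and 3.50 TPM in anti-PD-L1 libraries and 3.05, 5.27, 4.61 and 4.47 TPM in IgG libraries. Replicate 2 was the highest in each group, and the groups overlapped. The log2 difference of Srd5a1 was -0.14 with a 95% interval of -0.59 to 0.31. It was -0.30 without anti-PD-L1 replicate 2, -0.05 without anti-PD-L1 replicate 3, -0.27 without IgG replicate 1 and -0.06 without IgG replicate 2. Srd5a1 over Hsd17b3 averaged 0.105 ± 0.0514 in anti-PD-L1 and 0.131 ± 0.0353 in IgG (SD, n = 4 each).

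Across libraries, Star, Cyp11a1 and Cyp17a1 varied together. Over the 8 libraries, Star and Cyp11a1 had a Pearson r of 0.97 on log2(TPM + 1) (exact permutation p = 9.92e-05, adjusted over 45 pairs 0.00446). Spearman's rho was 0.976 (exact permutation p = 0.000397, adjusted 0.0179). Without the 2 libraries whose Star level was farthest from the median, r was 0.930, and after centring each group on its own mean it was 0.978, so the relation did not rest on the groups. Cyp11a1 and Cyp17a1 had r = 0.936 (exact permutation p = 0.000645, adjusted 0.0145) and rho = 0.952 (exact permutation p = 0.00114, adjusted 0.0257), and r was 0.860 without the 2 farthest libraries. Star and Cyp17a1 had r = 0.864 (exact permutation p = 0.00449, adjusted 0.0673) and rho = 0.929 (exact permutation p = 0.00223, adjusted 0.0335), with r = 0.869 without the 2 farthest libraries.

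All 3 genes were highest in anti-PD-L1 replicate 2 and lowest in anti-PD-L1 replicate 3, so the anti-PD-L1 group held both ends of their range. Cyp11a1 moved over a much narrower span than Star, 1.26-fold against 2.32-fold, and Cyp17a1 spanned 1.95-fold. Of the 45 pairs among the 10 genes, 26 had a positive r, and these were the 3 with r above 0.8; 2 pairs passed an adjusted p of 0.05 for r. Over all 8 libraries Fdx1 had an r of 0.12 with Star, 0.19 with Cyp11a1, 0.14 with Cyp17a1 and 0.05 with Fdxr. After centring each group on its own mean, these values were 0.72, 0.64, 0.42 and -0.17. All values of a library share its scaling.

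**Figure D5:**
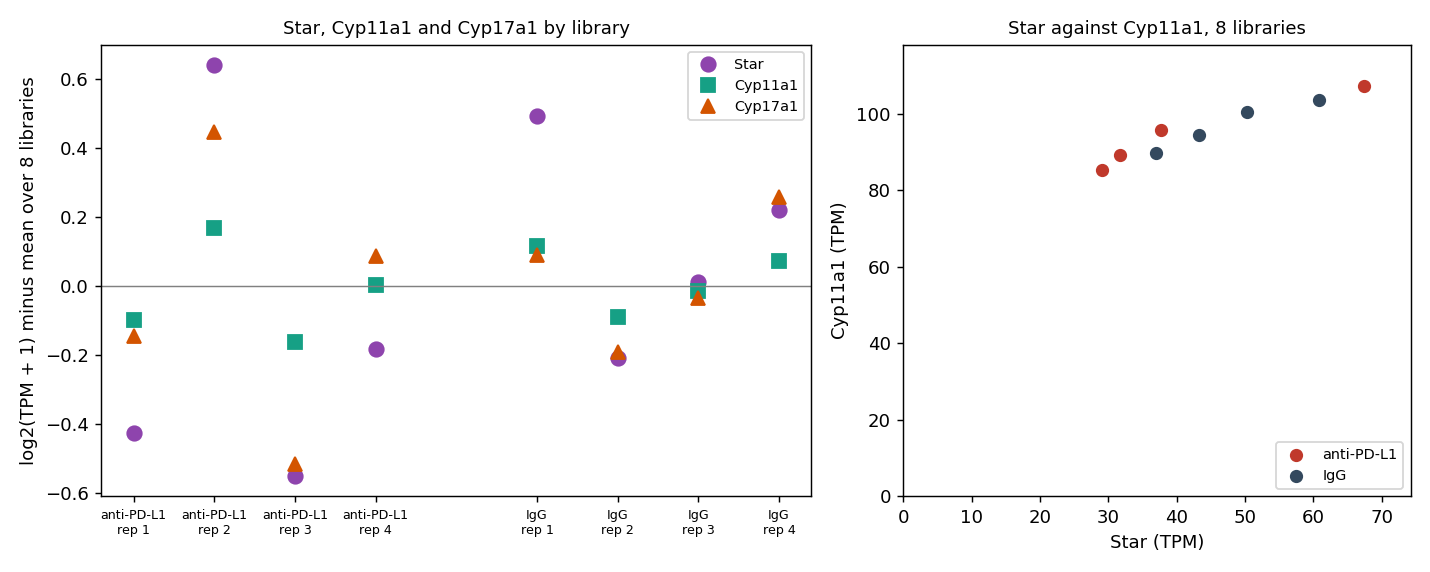
Left, log2(TPM + 1) of Star, Cyp11a1 and Cyp17a1 in each library minus the gene's mean over the 8 libraries, anti-PD-L1 libraries first; right, TPM of Cyp11a1 against TPM of Star, 1 point per library, on linear axes from 0. Anti-PD-L1 replicate 2 is the highest and anti-PD-L1 replicate 3 the lowest library for all 3 genes, and Star and Cyp11a1 lie close to a line (r = 0.97 on log2(TPM + 1)).

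Genes outside the set were ranked by how closely they followed the mean of the 10 standardized levels over the 8 libraries. That mean was 0.27, 0.59, -0.63 and 0.34 in anti-PD-L1 replicates 1 to 4 and 0.30, -0.49, -0.45 and 0.08 in IgG replicates 1 to 4. The closest genes were Calu (r = 0.988), a calcium-binding protein of the secretory pathway, Gpam (r = 0.967), a mitochondrial acyltransferase of glycerolipid synthesis, Tmem45b (r = 0.956) and Zfp954 (r = 0.952). The next, at r = 0.949, was an assembled locus with no symbol. With 8 libraries and 20343 candidates, such values describe these libraries.

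Other genes of the pathway were taken from 5 lists, of which 82 genes were tested. Of these, 50 (61.0%) had a higher and 32 a lower mean log2 value in anti-PD-L1, beside 58.3% higher over all tested genes, with a median log2 difference of 0.02, and 0 passed an adjusted p of 0.05 in limma with Benjamini-Hochberg adjustment. At an unadjusted limma p under 0.05 there were 2 higher and 1 lower, 3.66% of the 82, and for 3 genes, Insl3, Hsd17b7 and Fdx1l, the groups did not overlap. Both shares stand beside 5.23% and 2.99% over all tested genes.

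Among 14 tested steroid enzymes outside the set, 8 were higher and 6 lower, and none passed an unadjusted limma p of 0.05. Hsd17b7, which acts in cholesterol synthesis and on oestrone, was at 1.83, 2.12, 2.29 and 1.94 TPM in anti-PD-L1 libraries, against 1.72, 1.76, 1.67 and 1.68 TPM in IgG libraries. The groups did not overlap, but the level was low and the unadjusted limma p was 0.205. Hsd17b2, which oxidizes testosterone back to androstenedione, averaged 1.96 TPM in anti-PD-L1 and 2.15 TPM in IgG. The most abundant were Akr1cl, at 105 ± 23.4 TPM in anti-PD-L1 and 97.8 ± 15.1 TPM in IgG (SD, n = 4 each), and Hsd17b4, a peroxisomal enzyme of fatty acid oxidation, at 33.2 TPM in anti-PD-L1 and 33.4 TPM in IgG. Hsd17b10, a mitochondrial dehydrogenase, averaged 20.0 TPM in anti-PD-L1 and 18.9 TPM in IgG.

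Of 14 other electron carriers and NADPH suppliers, 10 were higher and 4 lower, and only Fdx1l passed an unadjusted limma p of 0.05. Pgrmc2, a haem-binding membrane protein, averaged 34.4 TPM in anti-PD-L1 and 30.6 TPM in IgG, with a log2 difference of 0.16 and an unadjusted limma p of 0.138. Its relative Pgrmc1 averaged 94.1 TPM in anti-PD-L1 and 88.5 TPM in IgG. Cyb5b, a cytochrome b5 of the outer mitochondrial membrane, averaged 31.6 TPM in anti-PD-L1 and 29.7 TPM in IgG. Malic enzyme Me1, which makes NADPH, averaged 208 TPM in anti-PD-L1 and 205 TPM in IgG.

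The 15 tested genes among other users of these carriers, P450 enzymes and haem oxygenases among them, had 9 higher and 6 lower, and none passed an unadjusted limma p of 0.05. Hmox2, a haem oxygenase that takes electrons from POR, averaged 612 TPM in anti-PD-L1 and 636 TPM in IgG. Sqle, the squalene epoxidase of cholesterol synthesis, averaged 55.6 TPM in anti-PD-L1 and 52.7 TPM in IgG. Cyp26a1, which clears retinoic acid, averaged 0.95 TPM in anti-PD-L1 and 1.27 TPM in IgG. Of 17 genes for the supply of cholesterol, 10 were higher and 7 lower, and again none passed. Hmgcs1, an early enzyme of cholesterol synthesis, averaged 36.0 ± 1.34 TPM in anti-PD-L1 and 32.8 ± 1.96 TPM in IgG (SD, n = 4 each). Its log2 difference was 0.13, with an unadjusted limma p of 0.0625. Vdac2, a channel of the outer mitochondrial membrane, averaged 445 ± 28.7 TPM in anti-PD-L1 and 412 ± 9.20 TPM in IgG (SD, n = 4 each). For Vdac2 the log2 difference was 0.11 and the unadjusted limma p 0.0672. Lipe, the hormone-sensitive lipase, averaged 177 TPM in anti-PD-L1 and 185 TPM in IgG, and Acbd3 averaged 23.7 TPM in anti-PD-L1 and 21.6 TPM in IgG.

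Among 22 tested genes listed for the regulation of steroidogenesis, 13 were higher and 9 lower, and 2 passed an unadjusted limma p of 0.05, both higher. Insl3, the peptide hormone of mature Leydig cells, was at 1756, 2447, 3028 and 1609.8 TPM in anti-PD-L1 libraries, against 998, 751, 834 and 912 TPM in IgG libraries. The log2 difference was 1.30 (standard error 0.19), with an unadjusted limma p of 8.94e-05 and a Benjamini-Hochberg adjusted p of 0.202. Insl3 is part of the Leydig marker sum, which was 3066 to 4066 TPM in anti-PD-L1 libraries and 1796 to 2328 TPM in IgG libraries. Without Insl3 the sum over the other 14 markers was 1422, 1277, 1037 and 1457 TPM in anti-PD-L1 libraries. In IgG libraries it was 1330.1, 1045, 971 and 1198 TPM, and the groups overlapped. This sum was added after the values were seen. It includes Star, Cyp11a1, Cyp17a1, Hsd3b1 and Hsd3b6, so it is not independent of the steroidogenic genes described here. Anti-PD-L1 replicate 3, the library with the most Insl3, had the lowest Star, Cyp11a1 and Cyp17a1. Anti-PD-L1 replicate 2, the next in Insl3, had the highest level of all these genes. Among IgG libraries, Insl3, Star and Cyp11a1 had the same order, from replicate 1 (highest) through 4 and 3 to replicate 2. Cyp17a1 was highest in IgG replicate 4 and lowest in IgG replicate 2.

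Ptch1, the hedgehog receptor, averaged 6.18 ± 1.15 TPM in anti-PD-L1 and 3.91 ± 1.11 TPM in IgG (SD, n = 4 each). The difference on the log2 scale was 0.56, with an unadjusted limma p of 0.0118 and an adjusted value of 0.716 by Benjamini-Hochberg. The groups overlapped through IgG replicate 4. Lhcgr, the receptor through which luteinizing hormone drives steroidogenesis, was at 4.32, 7.26, 3.95 and 5.71 TPM in anti-PD-L1 libraries and 8.73, 6.24, 4.43 and 6.20 TPM in IgG libraries. These overlapped, with a log2 difference of -0.23 and an unadjusted limma p of 0.315. With 1 library left out the difference ranged from -0.37 (without anti-PD-L1 replicate 2 or without IgG replicate 3) to -0.09 (without IgG replicate 1), and it was -0.12 without anti-PD-L1 replicate 3 and -0.037 with array quality weights. Lhcgr, like Star, was lowest in anti-PD-L1 replicate 3. Nr5a1, the nuclear receptor that activates steroidogenic genes, averaged 21.9 ± 3.0 TPM in anti-PD-L1 and 22.0 ± 2.64 TPM in IgG (SD, n = 4 each). Its antagonist Nr0b1 averaged 20.6 TPM in anti-PD-L1 and 18.4 TPM in IgG, and the cyclic AMP-responsive Crem, abundant in spermatids, averaged 253 TPM in anti-PD-L1 and 257 TPM in IgG.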

How the data were processed

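Testis RNA of 8 libraries, 4 anti-PD-L1 and 4 IgG, was sequenced. Sample titles gave the groups and replicate numbers. Libraries were made with the TruSeq RNA kit from DNase-treated TRIzol RNA, per the labels' protocols. The authors deposited TPM per gene, with CASAVA 1.8, HISAT2, StringTie and RSEM and the build mm10 named in the submitters' processing notes. What each tool did, which annotation was used and whether strand was used were not given in the sources used here. A TPM value keeps no depth, so no counting intervals are given; the number of libraries limits the precision.

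The table had 57690 entries. Values were analysed as log2(TPM + 1), with a pseudocount of 1, which understates changes of low genes. The 20343 genes whose average over all libraries reached 1 TPM were fitted with limma 3.58.1 in R 4.3.3, with an intensity trend, group as the only term and two-sided p-values; Benjamini-Hochberg adjusted values under 0.05 were called. The test was tested on simulated data. Correlations used two-sided exact permutation tests over 40320 pairings in numpy 2.4.6, with ranks for Spearman's rho from scipy 1.17.1. Trimmed-mean (TMM) factors were computed between libraries on TPM. Ratios of TPM were computed within libraries and not tested.

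The members and gene lists were chosen with earlier results of these data known. Named genes were the 10 members and, from each of the 5 lists of other pathway genes, the 3 with the smallest unadjusted p and the 2 with the highest level, besides Insl3 and Lhcgr, and the 5 genes most like the members' mean. Hsd3b2, Gm12431, Gm17108, Gm17322, Nsun2, Mc2r, Fabp4, Acsl1, Pnpla2, Adipoq, Prm1 and Tnp1 were named after their values were seen. Gene coordinates and transcripts are from GENCODE M21 (GRCm38, also called mm10), to which all 10 members matched by Ensembl identifier. Promoters are from RefSeq (GRCm38.p6), with entries for 8 of the 10; Star and Cyp17a1 had none. The 19 alternative fits changed the pseudocount (0.1), the filter (none, or 5 TPM), the scaling, the sample weights, the variance model, the replicate block, the treatment of repeated symbols or the libraries. For Fdx1l, Hsd17b7, Insl3, Lhcgr, Ptch1 and the lists of other pathway genes, running these fits was decided after seeing the data.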

Additional observations from a re-analysis of the deposited data

Results flagged for a closer look

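Of 78 groups of 4 libraries examined for the genes named here, 2 held a library whose gap to its nearest neighbour was large for the range of its group; chance gives such a gap in about 1 in 20 groups. Me1, malic enzyme, was at 215.7 TPM in 1 IgG library, and the next IgG library was at 202.6 TPM. Ptch1 was at 5.57 TPM in IgG replicate 4, a library that stood apart in its number of entries above 0, and the next IgG library was at 3.47 TPM. None of the 10 steroidogenic genes had such a library in either group.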

How the results depend on the processing

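In 19 alternative fits, none of the 10 genes passed an adjusted p of 0.05 in limma, and Fdx1 and Hsd3b1 kept a positive log2 difference (0.47 to 0.70 and 0.14 to 0.28). The count of the 10 past an unadjusted limma p of 0.05 was 1 under TMM rescaling, without an intensity trend, under quantile normalization and without both libraries that stood apart, and 1 to 3 when 1 library was left out. The genes past an adjusted p numbered 5 under array quality weights, 1 with a pseudocount of 0.1 and 9 without both libraries that stood apart. Leaving out 1 library gave 0 to 16 such genes, with 16 without IgG replicate 4, 3 without anti-PD-L1 replicate 4, and 1 each without IgG replicate 2 or anti-PD-L1 replicate 1. Genes of the 5 other lists past an unadjusted p numbered 6 under array quality weights, 5 with no filter (105 genes tested), 7 without both libraries, and 2 to 5 when 1 library was left out. When 1 library was left out, the groups did not overlap for 1 to 2 of the 10 genes. The second was Hsd3b1 without IgG replicate 1. Over all tested genes the share without overlap was 4.36% to 11% in these fits, and 5.41% without IgG replicate 1. For an unadjusted p, the share of all tested genes is given only for the main fit, at 5.23%. The sign turned for 5 of the 10 genes. Under array quality weights the log2 difference was 0.031 for Star, 0.041 for Cyp11a1 and 0.14 for Cyp17a1, and without both libraries it was 0.050 for Cyp17a1 and 0.024 for Por. With 1 library left out, it ranged from -0.091 to 0.038 for Por (0.038 and 0.022 without anti-PD-L1 replicates 1 and 2, 0.011 and 0.028 without IgG replicates 1 and 2), from -0.22 to 0.10 for Cyp17a1 (0.10 without anti-PD-L1 replicate 3, 0.013 without IgG replicate 4), from -0.11 to 0.0033 for Cyp11a1 (0.0033 without anti-PD-L1 replicate 3) and from -0.047 to 0.13 for Fdxr (-0.047 without anti-PD-L1 replicate 1). The cause was not tested.

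Same-numbered libraries had correlations of deviations of -0.115, 0.10, 0.0896 and -0.198 for replicates 1 to 4. Anti-PD-L1 replicates 2 and 3 correlated best with the IgG library of their own number, and replicates 1 and 4 did not. Whether the replicate numbers pair the libraries cannot be told from these values. With the replicate block, 0 of all genes and 0 of the 10 passed an adjusted p in limma, and 2 of the 10 passed an unadjusted p. The unadjusted limma p of Fdx1 was 0.0180 with the block and 0.00304 without it. For Hsd3b1 it was 0.00502 with the block and 0.0352 without it. The ratios Fdx1 over Cyp11a1 and Fdx1 over Fdx1l kept log2 differences of 0.54 to 0.71 and 0.68 to 0.90 when libraries were left out. Depth is unknown, so what was not detectable for low genes such as Srd5a1 and Hsd17b7 could not be set out.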
